A study of Mus musculus with 14 samples.

Results

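The transcripts of 8 costimulatory receptors were followed in mouse regulatory T cells (Tregs) by RNA-seq. The receptors were chosen by name as the costimulatory molecules best known on Tregs, with earlier results of these data known. All 8 were found among the 48363 genes with values. They were 2 members of the CD28 family, CD28 (Cd28) and ICOS (Icos), and 6 members of the TNF receptor superfamily, OX40 (Tnfrsf4), 4-1BB (Tnfrsf9), GITR (Tnfrsf18), TNFR2 (Tnfrsf1b), DR3 (Tnfrsf25) and CD27 (Cd27). Tregs were sorted as CD4+ FOXP3+ cells from pooled spleen and lymph nodes of untreated mice, and 14 libraries were made. Of these, 5 came from cKO mice (Foxp3 Cre, with miR-15/16 fl/fl alleles), whose miR-15a/16-1 cluster and miR-15b/16-2 cluster are both floxed and are deleted by Cre expressed from the Foxp3 locus. A further 4 came from WT mice (Foxp3 Cre, with miR-15/16 wt/wt alleles). The last 5 held WT Tregs sorted by CD25, 3 of them CD25hi and 2 CD25lo. All 4 groups carry the same YFP/Cre knock-in at Foxp3, so none shows Tregs without it, and the deletion is restricted to cells that express Foxp3. The paper used mice of 2 ages, and which of them gave these libraries is not stated in the sources used here.

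Costimulation is the second signal that a T cell needs beside its antigen receptor. CD28 and ICOS are homologous receptors for ligands on antigen presenting cells (CD80 and CD86 for CD28, ICOSL for ICOS), and both recruit PI3K, while the inhibitory receptor CTLA-4 competes with CD28 for its ligands. The TNF receptor superfamily members bind trimeric ligands and signal through TRAF adaptors to NF-kappaB. Tregs need CD28 for their development and maintenance, and are known for high resting levels of OX40, GITR and TNFR2, which are often used to describe effector or thymus-derived Tregs. CD25, the alpha chain of the IL-2 receptor, is the surface protein by which the CD25hi and CD25lo Tregs were separated.

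The deleted miRNAs share 1 seed, bases 2 to 8, which pairs with sites in 3′ UTRs. They are shown because the seed decides which of the 8 receptors holds a candidate site. In the mature sequences below (RefSeq, GRCm38.p6), capitals mark the seed.
miR-15a-5p (chr14:61632075-61632096, minus strand): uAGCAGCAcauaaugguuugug
miR-15b-5p (chr3:69009775-69009796, plus strand): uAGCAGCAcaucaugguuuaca
miR-16-5p (chr14:61631936-61631957, minus strand, and chr3:69009918-69009939, plus strand): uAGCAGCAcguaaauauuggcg
Seed matches (TGCTGCTA, TGCTGCT or GCTGCTA) were searched in the longest annotated 3′ UTR of each gene. Of the 8 receptors, Cd28 and Icos held a match, and the 6 TNF receptor superfamily members held none. The 30 bases around each site are given, with the match in capitals.
Cd28 (GRCm38 chr1:60772045-60772074, plus strand, 3′ UTR in the last exon, match from base 2271 of 3574): actatgtcactTGCTGCTAttattgtaaga
Icos (GRCm38 chr1:60998880-60998909, plus strand, 3′ UTR in the last exon, match from base 1177 of 2606): ctgggacaagcTGCTGCTttggtctctggg
The Cd28 site was a full 8-mer, and the Icos site matched all 7 seed bases without the flanking A. Length bears on this count. A match was found in 27.8% of the 3′ UTRs of 12725 tested genes, in 54.7% of those within 20% of the length of the Cd28 UTR and in 44.6% of those as long as the Icos UTR. The UTRs of the TNF receptor superfamily members ran from 180 bases (Tnfrsf4) to 2324 bases (Tnfrsf1b), and 4.7% to 41.4% of UTRs of like length held a match. A match is a description of the letters and was not tested for binding.

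The libraries held 30055573 to 35226685 reads in genes, and no 2 replicates of a group agreed within sampling noise. Values are normalized counts, that is, reads divided by a size factor of the library. The 4 deleted miRNA genes were listed at 0 in each of the 14 libraries, which leaves the deletion itself unseen in these data. Dleu2, the host transcript of miR-15a/16-1, was at 2121.4 to 2712.6 normalized counts in cKO Tregs and 86.3 to 1099.7 in WT Tregs. The sorted cells carried Treg markers, with Foxp3 at 14545.5 to 24370.2 normalized counts in every library, against at most 60.4 for Cd8a and 88.5 for Lyz2, which mark CD8 T cells and myeloid cells. By Xist and Ddx3y, all 5 cKO libraries and WT replicate 3 were female and the other 8 libraries male. The paper states that mice were matched for age and sex in all experiments, but the cKO and WT libraries were not matched for sex. The mean log2 level of 22 immediate early genes ran from 12.75 to 13.71 in cKO Tregs and from 11.64 to 12.20 in the CD25-sorted libraries, while the first 3 WT replicates had 13.46 to 13.71 and WT replicate 4 had 11.86. WT replicate 4 thus stood apart from the other 3 WT libraries.

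In cKO Tregs, Cd28 and Icos were higher than in WT Tregs, by 1.31-fold and 1.44-fold, calls that were lost with sex as a term (adjusted p = 0.890 and 0.724), and none of the 6 TNF receptor superfamily members was called. In CD25lo Tregs, Tnfrsf4, Tnfrsf9, Tnfrsf18 and Tnfrsf1b were lower than in CD25hi Tregs, at 0.556, 0.538, 0.678 and 0.702 of their level, and Cd28, Icos, Tnfrsf25 and Cd27 were not called. These 4 calls rest on 2 CD25lo libraries. They were lost in the fit to the CD25-sorted libraries alone, where 0 of all genes were called. The word called means here that limma gave an adjusted p (Benjamini-Hochberg, over all 16241 genes tested) under 0.05, and all 8 receptors passed the filter on low values. In bulk libraries, fewer cells that carry a receptor and less of its RNA per cell cannot be told apart. Of all genes tested, 2.04% were called higher and 1.48% lower in cKO than in WT Tregs, and 0.61% were called higher and 1.01% lower in CD25lo than in CD25hi Tregs. The receptors are abundant transcripts, and among the 5830 genes with a mean of at least 1000 normalized counts these shares were 4.24% higher and 3.48% lower in cKO Tregs, and 1.17% higher and 1.73% lower in CD25lo Tregs.

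**Figure D1:**
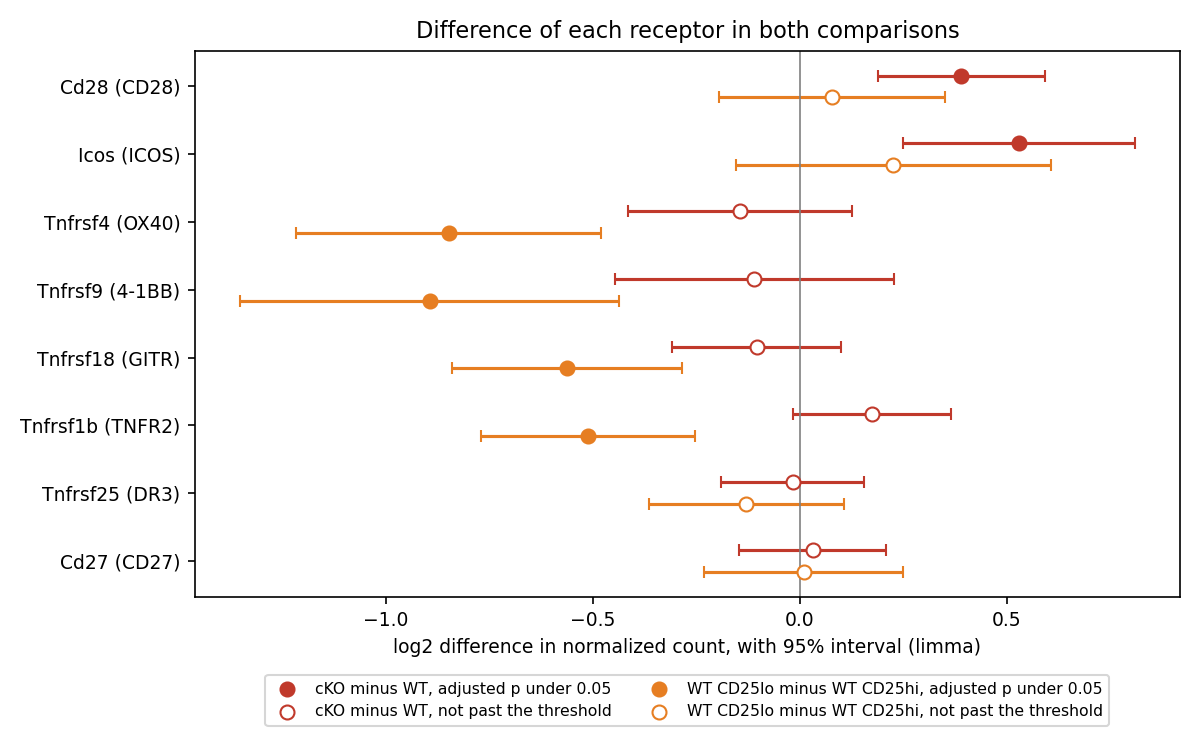
Log2 difference in normalized count of each receptor between cKO and WT Tregs (red) and between CD25lo and CD25hi WT Tregs (orange), with 95% intervals from limma; filled points passed an adjusted p of 0.05. Filled red points are Cd28 (0.39) and Icos (0.53), and the 4 filled orange points, from -0.51 to -0.89, are Tnfrsf4, Tnfrsf9, Tnfrsf18 and Tnfrsf1b.

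Cd28, the founding costimulatory receptor of T cells, lies on chromosome 1 (GRCm38 chr1:60716800-60773359, plus strand, 4 exons). The 5 cKO libraries held 18155.0, 16475.3, 15461.2, 20268.0 and 18407.2 normalized counts of Cd28, replicates 1 to 5 in order. The 4 WT libraries held 13526.0, 14940.0, 14733.1 and 11117.8. Every cKO library was above every WT library, and the lowest WT value was that of replicate 4. The means were 17753 ± 1857 (SD, n = 5) and 13579 ± 1755 (SD, n = 4), a log2 difference of 0.39 (standard error 0.10, 95% interval 0.19 to 0.59, limma adjusted p = 0.028). Cd28 was at 9386.5, 12215.8 and 9949.8 normalized counts in the CD25hi libraries and at 10800.2 and 11263.3 in the CD25lo libraries. Both CD25lo values lay within the range of the CD25hi libraries, and the log2 difference was 0.08 (95% interval -0.20 to 0.35, limma adjusted p = 0.851).

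Icos, the inducible relative of CD28 that effector Tregs carry, lies further along the same strand (chr1:60977927-61000320, 5 exons), beyond Ctla4. It was at 10604.9, 7895.9, 10693.9, 9968.0 and 11853.4 normalized counts in the 5 cKO libraries, against 8333.2, 7311.1, 7082.4 and 5578.4 in the WT libraries. The ranges met at 1 point, since cKO replicate 2 was below WT replicate 1, and the other 4 cKO libraries were above all WT libraries. The means of 10203 ± 1458 (SD, n = 5) and 7076 ± 1137 (SD, n = 4) gave a log2 difference of 0.53 (standard error 0.13, 95% interval 0.25 to 0.81, limma adjusted p = 0.032). In the CD25hi libraries Icos was at 4901.1, 3612.9 and 5505.0 normalized counts and in the CD25lo libraries at 4771.8 and 6075.7. These ranges overlapped, and the log2 difference of 0.23 (95% interval -0.15 to 0.61) was not called (limma adjusted p = 0.629).

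Both differences of the CD28 family lay close to the threshold. They were called with edgeR, DESeq2 and limma-voom on recovered reads, and with the immediate early level as a term (log2 difference 0.39, adjusted p = 0.0052 for Cd28; 0.53, adjusted p = 0.0072 for Icos). With sex as a term, which leaves WT replicate 3 as the only WT library of the same sex, the log2 difference was 0.26 for Cd28 (adjusted p = 0.890) and 0.51 for Icos (adjusted p = 0.724). WT replicate 3 itself was at 14733.1 normalized counts of Cd28 and 7082.4 of Icos, where the lowest cKO values were 15461.2 and 7895.9. A single library cannot separate genotype from sex. Without a filter both calls were lost (limma adjusted p = 0.0575 for Cd28 and 0.0708 for Icos). The same held with replicate number as a term (limma adjusted p = 0.112 and 0.0969). In the fit to cKO and WT libraries alone, Icos was called (limma adjusted p = 0.0444) and Cd28 was not (0.0566). Without WT replicate 4 the log2 differences were 0.30 for Cd28 (limma adjusted p = 0.0763) and 0.42 for Icos (limma adjusted p = 0.0891). Both calls were also lost without cKO replicate 1, 4 or 5, that of Cd28 without WT replicate 1, and that of Icos without cKO replicate 3, WT replicate 2 or WT replicate 3. Summed over 12 myeloid markers, the level was 1282.4 to 5254.9 normalized counts in cKO Tregs, 1821.0 in WT replicate 4 and 4478.4 to 8097.8 in the other WT libraries, with Lyz2 at 0 in WT replicate 4, and over 12 B cell markers it was 1073.3 to 1467.6 in cKO and 599.1 to 1249.6 in WT Tregs. Limma called 0 of the 12 myeloid and 0 of the 7 B cell markers it tested, where 5 and 2 had an unadjusted p under 0.05 and DESeq2 called 1 of each, and their part in the result was not tested.

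**Figure D2:**
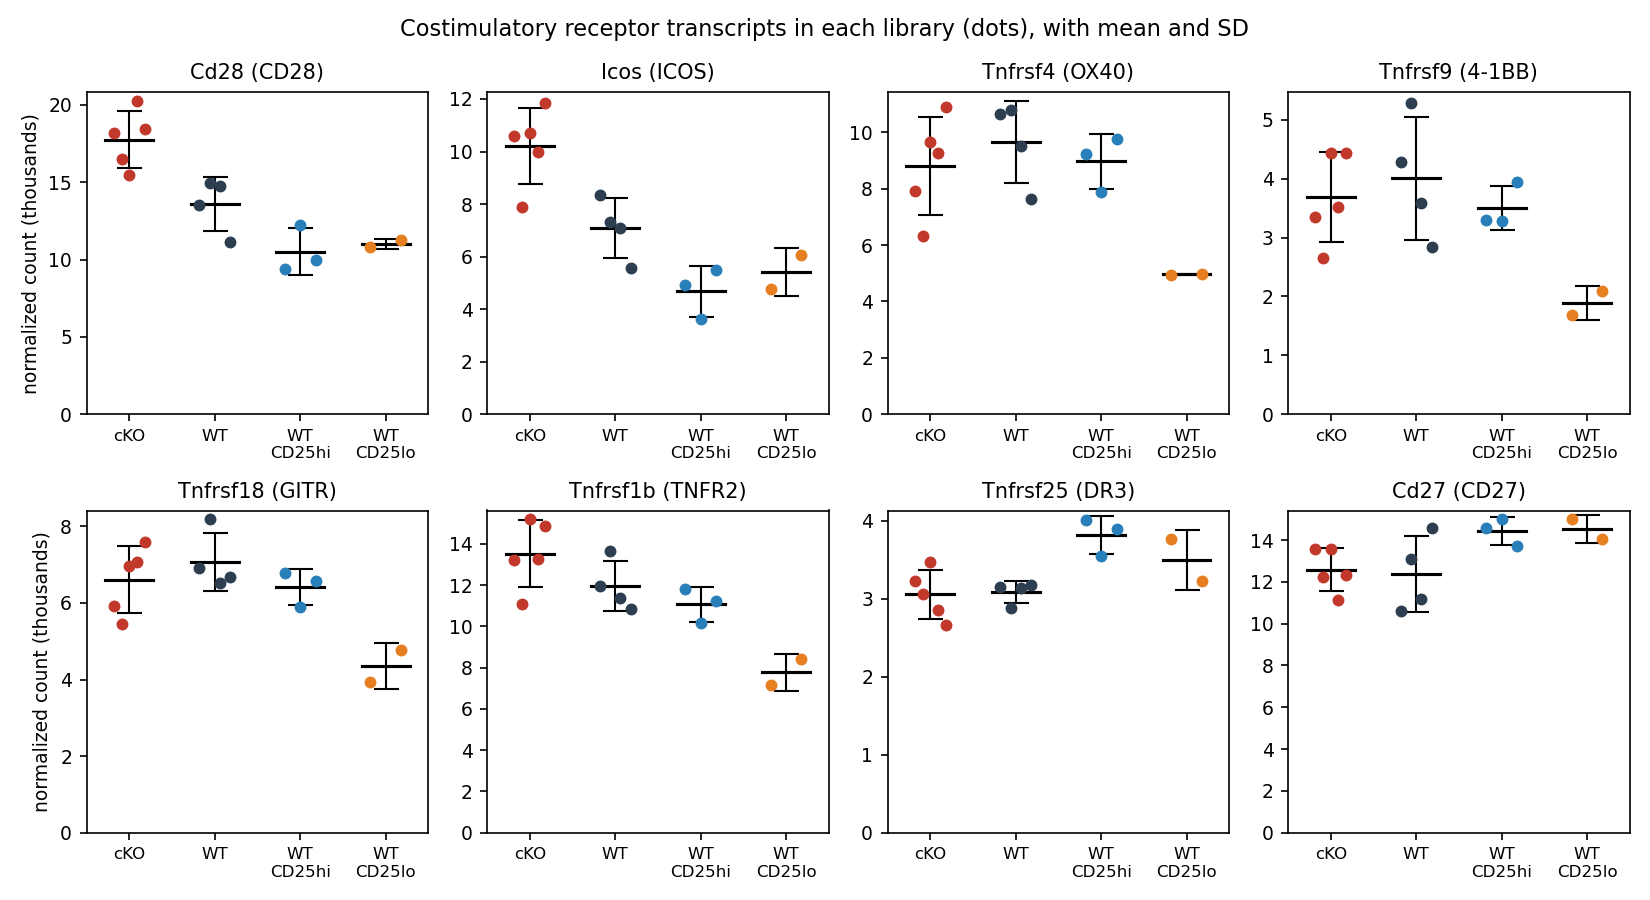
Normalized counts (in units of 1000) of the 8 receptors in each library (dots), grouped as cKO (n = 5), WT (n = 4), WT CD25hi (n = 3) and WT CD25lo (n = 2), with the mean and SD of each group in black. The cKO dots of Cd28 lie above all other dots, and the CD25lo dots of Tnfrsf4, Tnfrsf9, Tnfrsf18 and Tnfrsf1b lie below all dots of the other 3 groups.

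Between Cd28 and Icos lies Ctla4, which encodes the inhibitory receptor of the same ligands. Ctla4 averaged 36446 ± 4809 normalized counts (SD, n = 5) with the deletion, against 29019 ± 10619 (SD, n = 4) for WT, a log2 difference of 0.42 (standard error 0.21) that was not called (limma adjusted p = 0.344). The neighbours on the outer sides, Raph1 and Pard3b, were not called either in cKO Tregs (limma adjusted p = 0.986 and 0.815). Of the 3 coinhibitory relatives examined, Ctla4, Pdcd1 (PD-1) and Btla, only Btla was called in cKO Tregs. Btla averaged 6407 ± 455.4 normalized counts (SD, n = 5) against 5034.5 ± 470.1 (SD, n = 4) for WT, a log2 difference of 0.35 (standard error 0.09, limma adjusted p = 0.0319), and its call was lost with the sex term (adjusted p = 0.726). The median log2 difference of the 3 was 0.37 in cKO Tregs, beside 0.05 over all genes tested, and -0.11 in CD25lo Tregs, beside 0.00.

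The signaling molecules downstream of CD28 and ICOS were also examined. In cKO Tregs, 0 of 20 genes of this list were called by limma, where 6 had an unadjusted p under 0.05, and edgeR called 0, limma-voom 1 and DESeq2 3. The median log2 difference was -0.09, beside 0.05 over all genes tested. In CD25lo Tregs, 2 of the 20 were called higher and none lower, beside 0.61% of all genes called higher and 1.01% lower, and edgeR called 2, limma-voom 4 and DESeq2 4. Themis, a signaling adaptor of the T cell receptor, averaged 3856 ± 282.9 normalized counts (SD, n = 2) in the CD25lo libraries against 2261 ± 49.9 (SD, n = 3), a log2 difference of 0.77 (standard error 0.12, limma adjusted p = 0.0025). Malt1, the paracaspase through which CD28 reaches NF-kappaB, was at 7299 ± 839.7 and 5222 ± 218.5 normalized counts, a log2 difference of 0.48 (standard error 0.11, limma adjusted p = 0.0295). The call of Malt1 was lost without a filter (adjusted p = 0.0538) and in the fit to the CD25-sorted libraries alone (0.243), where that of Themis was lost too (0.0863).

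Among the TNF receptor superfamily members, OX40 and GITR are neighbours on chromosome 4, with Tnfrsf4 at chr4:156013843-156016612 and Tnfrsf18 at chr4:156026164-156028895, both on the plus strand and 9551 bases apart. Tnfrsf4 was at 9228.9, 7894.0 and 9761.3 normalized counts in the CD25hi libraries and at 4946.4 and 4973.6 in the CD25lo libraries. The CD25lo values were lower than that of any other library of the series. The means of 4960 ± 19.2 (SD, n = 2) and 8961 ± 962.0 (SD, n = 3) gave a log2 difference of -0.85 (standard error 0.18, 95% interval -1.22 to -0.48, limma adjusted p = 0.0179). Tnfrsf18 was at 6793.4, 5888.4 and 6568.1 normalized counts in the CD25hi libraries and at 3938.0 and 4780.9 in the CD25lo libraries. These ranges did not overlap, and the log2 difference was -0.56 (standard error 0.13, 95% interval -0.84 to -0.28, limma adjusted p = 0.0377).

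4-1BB, an activation-induced receptor of T cells, is encoded by Tnfrsf9 (chr4:150914562-150946102, plus strand). Its levels were 3301.5, 3272.7 and 3934.5 normalized counts in the CD25hi libraries and 1686.7 and 2090.2 in the CD25lo libraries. Both CD25lo values were below all other libraries, and the log2 difference of -0.89 was the largest of the 8 receptors (standard error 0.22, 95% interval -1.35 to -0.44, limma adjusted p = 0.0442). TNFR2, the receptor through which TNF acts on Tregs, is encoded by Tnfrsf1b (chr4:145213463-145246870, minus strand). It was at 11804.2, 10149.1 and 11246.8 normalized counts in the CD25hi libraries and at 7143.2 and 8414.2 in the CD25lo libraries, which again were the 2 lowest of all 14. The log2 difference was -0.51 (standard error 0.12, 95% interval -0.77 to -0.25, limma adjusted p = 0.0426).

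All 4 receptors were also lower in CD25lo Tregs than in unsorted WT Tregs (log2 differences of 0.62 to 1.05, WT minus CD25lo, limma adjusted p at most 0.0155; 1.94% of all genes were called in that pair) and than in cKO Tregs (0.60 to 0.94, limma adjusted p from 4.8e-04 to 0.0074; 7.6% of all genes). With the immediate early level as a term, the difference from WT was called for none of the 4 (adjusted p up to 0.267) and that from cKO for Tnfrsf1b alone, and with sex as a term the difference from cKO was called for none. Without CD25lo replicate 1 all 4 calls against WT and those of Tnfrsf4, Tnfrsf9 and Tnfrsf18 against cKO were lost. Without CD25lo replicate 2 those of Tnfrsf4 (both pairs) and Tnfrsf9 (against WT) were lost, as was that of Tnfrsf9 against WT without WT replicate 1. Against the CD25hi libraries the calls rest on 2 CD25lo libraries and on the spread shared by all groups. All 4 were lost when either CD25lo library, or CD25hi replicate 1 or 3, was left out, and 1 to 3 of them without CD25hi replicate 2, WT replicate 1 or 3, or cKO replicate 1, 3 or 4. Fitted to the 5 CD25-sorted libraries alone, none was called (adjusted p from 0.145 to 0.276, and 0 of all genes were called), while every direction stayed. Against CD25hi Tregs all 4 were called with the immediate early level as a term (adjusted p from 5.1e-04 to 0.0154) and with DESeq2, 3 with edgeR and TMM, 2 with the sex term, with edgeR and the deposited size factors and with limma-voom, and 1 without a filter. Tnfrsf9 was called under 5 of 12 such alternatives. The CD25 gate also separated Foxp3, which averaged 22851 ± 1350.2 normalized counts (SD, n = 3) on the CD25hi side and 15422 ± 1239 (SD, n = 2) on the CD25lo side. The summed levels of B cell markers (609.8 to 806.7 in CD25hi, 746.8 to 848.4 in CD25lo) and of myeloid markers (1309.8 to 1954.2 and 1814.8 to 2137.6) overlapped, and their part in the result was not tested.

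In cKO Tregs, which had 15512 ± 1685 normalized counts of Il2ra (SD, n = 5), near the 14854 ± 243.8 (SD, n = 2) of CD25lo Tregs, the same 4 receptors were not called against WT Tregs. Tnfrsf4 was at 7907.8, 6309.3, 9637.8, 9259.8 and 10889.9 normalized counts in the 5 cKO libraries, against 10650.0, 10800.2, 9524.2 and 7622.6 in the WT libraries. Tnfrsf9 was at 3349.8, 2658.0, 4442.2, 3516.7 and 4437.6 in the cKO libraries and at 4285.8, 5285.4, 3588.5 and 2846.8 in the WT libraries. For both genes the groups overlapped over most of their range, and the 95% intervals of the log2 difference ran from -0.41 to 0.13 for Tnfrsf4 and from -0.45 to 0.23 for Tnfrsf9. Tnfrsf18 was at 5927.7, 5461.1, 6970.9, 7075.4 and 7595.7 normalized counts in cKO and at 6912.9, 8192.4, 6523.3 and 6679.1 in WT Tregs (interval -0.31 to 0.10). Tnfrsf1b was at 13198.8, 11085.8, 15202.3, 13272.6 and 14851.5 in cKO and at 11948.5, 13659.1, 11373.3 and 10838.3 in WT Tregs, with a log2 difference of 0.17 (interval -0.02 to 0.36). Of the 6 TNF receptor superfamily members, 0 were called by limma in this comparison, 0 had an unadjusted p under 0.05, and edgeR, DESeq2 and limma-voom called 0.

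Whether the effect of the deletion differed from that of the CD25 gate was tested for each receptor as the difference of the log2 differences, which share no library. Only Tnfrsf1b was called, with 0.17 in cKO Tregs, -0.51 in CD25lo Tregs and a difference of 0.68 (standard error 0.15, 95% interval 0.36 to 1.01, limma adjusted p = 0.0376). Of all genes tested, 1.03% were called in this comparison. The call of Tnfrsf1b was lost with sex as a term, with replicate number as a term and without a filter. Tnfrsf4 (0.70, adjusted p = 0.132), Tnfrsf9 (0.78, adjusted p = 0.186) and Tnfrsf18 (0.46, adjusted p = 0.208) differed in the same direction and were not called. For Cd28 and Icos the difference was 0.31 and 0.30 (limma adjusted p = 0.416 and 0.593), so that their higher level in cKO Tregs was not shown to differ from the effect of the CD25 gate. The call of Tnfrsf1b was kept when cKO replicate 2, WT replicate 2, WT replicate 4 or CD25hi replicate 2 was left out and lost without any one of the other 10 libraries, both CD25lo libraries among them (difference 0.57, adjusted p = 0.143, without replicate 1, and 0.80, adjusted p = 0.0629, without replicate 2).

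The last 2 receptors were called in neither comparison. DR3, the receptor of TL1A, is encoded by Tnfrsf25 (chr4:152115934-152120119, plus strand) and was at 3219.3, 3063.5, 3469.9, 2859.6 and 2667.6 normalized counts in cKO and at 3143.6, 2873.1, 3133.0 and 3179.8 in WT Tregs. It was at 4009.8, 3547.7 and 3896.8 in CD25hi and at 3768.9 and 3227.6 in CD25lo Tregs. All 3 CD25hi libraries were above all cKO and WT libraries. The log2 difference was -0.02 (95% interval -0.19 to 0.16) in cKO against WT Tregs and -0.13 (95% interval -0.36 to 0.11) in CD25lo against CD25hi Tregs. Tnfrsf25 was called only between cKO and CD25hi Tregs (log2 difference -0.33, limma adjusted p = 0.0276), a pair in which 9.59% of all genes were called. That call was lost with terms for sex, immediate early level or replicate number, and without cKO replicate 4 or 5 or CD25hi replicate 1 or 3.

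CD27, the receptor of CD70 on naive and memory T cells, is encoded by Cd27 (chr6:125232622-125237010, minus strand). It was at 13571.6, 12251.2, 13565.2, 11141.2 and 12321.0 normalized counts in cKO and at 10616.7, 13085.8, 11177.1 and 14587.4 in WT Tregs. The CD25hi libraries held 14562.5, 15001.6 and 13727.7 and the CD25lo libraries 14987.4 and 14058.0. Both CD25lo values lay within the CD25hi range, and WT replicate 4, the highest WT library, lay within their range. The log2 difference was 0.03 (95% interval -0.15 to 0.21) in cKO against WT Tregs and 0.01 (95% interval -0.23 to 0.25) in CD25lo against CD25hi Tregs. Cd27 overlaps Vamp1 on the opposite strand, which was at 2820 to 3726 normalized counts by group and was not called in either comparison, and Tnfrsf9 and Tnfrsf18 overlap Camta1 and Gm16008 in the same way. Whether the counting used strand is not given in the sources used here.

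The remaining receptors of the superfamily were mostly low in Tregs. Of 22 others examined, 17 passed the filter on low values. In cKO Tregs 1 of these was called higher and none lower, with a median log2 difference of -0.09, beside 0.05 over all genes tested. The gene called was Tnfrsf26, a decoy-like receptor with close paralogs, which averaged 2209 ± 263.7 normalized counts (SD, n = 5) against 1342 ± 119.8 (SD, n = 4) for WT (log2 difference 0.71, standard error 0.15, limma adjusted p = 0.0119; adjusted p = 0.567 with the sex term). In CD25lo Tregs the median log2 difference was 0.25, beside 0.00 over all genes tested, with Tnfrsf11a at 0 in both CD25lo libraries. Of the 17, 1 was called lower and none higher. That gene was Tnfrsf8, which encodes CD30 and lies 20266 bases from Tnfrsf1b, its nearest gene on that side. Tnfrsf8 averaged 200.9 ± 14.1 normalized counts (SD, n = 2) on the CD25lo side against 727.3 ± 118.4 (SD, n = 3), a log2 difference of -1.84 (standard error 0.28, limma adjusted p = 0.0023; adjusted p = 0.0786 with limma-voom).

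None of the adaptors behind these receptors passed the limma test. Of 22 TRAF and NF-kappaB genes, limma called 0 in either comparison, with 5 at an unadjusted p under 0.05 in each, and DESeq2 called 1 in CD25lo Tregs while edgeR and limma-voom called 0. The median log2 differences were -0.05 in cKO and -0.06 in CD25lo Tregs. Ligands of the CD28 family and of the TNF receptor superfamily ranged widely in Tregs themselves. Ltb (lymphotoxin beta) was at 17313 to 20862 normalized counts by group and Cd86 at 728.6 to 1289. Cd70 and Tnfsf4 (OX40 ligand) were at 0.0 to 20.5, and Tnfsf18 (GITR ligand) did not pass the filter. Of the 10 ligands tested, Lta (lymphotoxin alpha, a ligand of TNFR2) was called, lower in both comparisons. Lta averaged 1609 ± 125.2 normalized counts (SD, n = 5) with the deletion against 2604 ± 470.5 (SD, n = 4) for WT (log2 difference -0.68, standard error 0.12, limma adjusted p = 0.0025; adjusted p = 0.699 with the sex term). In CD25lo Tregs it was at 2145 ± 98.4 (SD, n = 2), against 3610.5 ± 568.5 (SD, n = 3) in CD25hi Tregs (log2 difference -0.74, standard error 0.16, limma adjusted p = 0.0211). The median log2 difference of the ligands was 0.04 in cKO Tregs. None is given for CD25lo Tregs, since Tnfsf4, Tnfsf15 and Cd70 were at 0 in both CD25lo libraries and passed the filter through the other groups.

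Of the 8 receptors, 6 were chosen from 1 gene family, and genes of this family lie side by side on chromosome 4. There Tnfrsf4 is beside Tnfrsf18, and Tnfrsf1b beside Tnfrsf8. That 5 of the 8 lie on this chromosome thus goes with the choice and is no result. These 5 are the 4 receptors lower in CD25lo Tregs and Tnfrsf25. Their direct neighbours outside the superfamily with values that passed the filter, Sdf4, Park7, Vps13d, Plekhg5 and Espn, were not called in CD25lo Tregs (limma adjusted p from 0.132 to 0.904). The windows below are a description of the letters at the start sites, and a match was not tested for binding. Around the start sites of the 6 TNF receptor superfamily genes, 250 bases before to 50 after (RefSeq, GRCm38.p6), the GAS motif TTCNNNGAA, bound by STAT factors and its own reverse complement, was found in 4 genes, with the motif in capitals.
Tnfrsf9, at -136 from its second listed start (chr4:150927853-150927882, plus strand): caacagctgaTTCCAAGAAacccttcagag
Tnfrsf18, at -99 from its start (chr4:156026213-156026242, plus strand): tgctctacacTTCACAGAAggcctttacaa
Tnfrsf1b, at -181 from its start (chr4:145247032-145247061, minus strand): agcgcattcaTTCCCGGAAgagatgctgga
Tnfrsf25, at -16 from its second listed start (chr4:152116317-152116346, plus strand): gggcctccacTTCTCAGAAggcatggctgc
No GAS match was found in these windows of Tnfrsf4 and Cd27, and the promoter table has no entry for Cd28 and Icos. The 6 genes have 8 such windows, of which 4 held the motif, against 8.3% of all 32851 promoter windows, and Tnfrsf9 and Tnfrsf25 held it in 1 of their 2 windows. By gene, it occurred in 4 of the 6, and no share by gene over all promoters was computed. Whether the motif has a part in these levels was not tested. An NF-kappaB motif was found in 1 of the 8 windows, that of Tnfrsf9 at -43 and -42 from the same start, and in 4.51% of all windows.

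Levels can be compared between receptors only per length. Per kb of exon, Tnfrsf4 led in WT Tregs with 7069 ± 1074 normalized counts (SD, n = 4), followed by Cd27 with 5312 ± 781.4, Tnfrsf18 with 4644 ± 499.1 and Tnfrsf1b with 3131 ± 320.4. Cd28 and Icos stood in the middle at 2218 ± 286.7 and 2063 ± 331.5, and Tnfrsf9 (1470 ± 381.4) and Tnfrsf25 (1354 ± 61.9) were lowest. By their mean over all libraries, not adjusted for length, the 8 exceeded 85.3% (Tnfrsf25) to 97.9% (Cd28) of the genes tested. In CD25lo Tregs the first place passed to Cd27 (6238 ± 282.3, SD, n = 2), with Tnfrsf4 at 3634 ± 14.1. In cKO Tregs Icos (2975 ± 425.1, SD, n = 5) and Cd28 (2900 ± 303.4) held adjacent places, as in WT Tregs, and both exceeded their WT level. These places were not tested between genes.

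**Figure D3:**
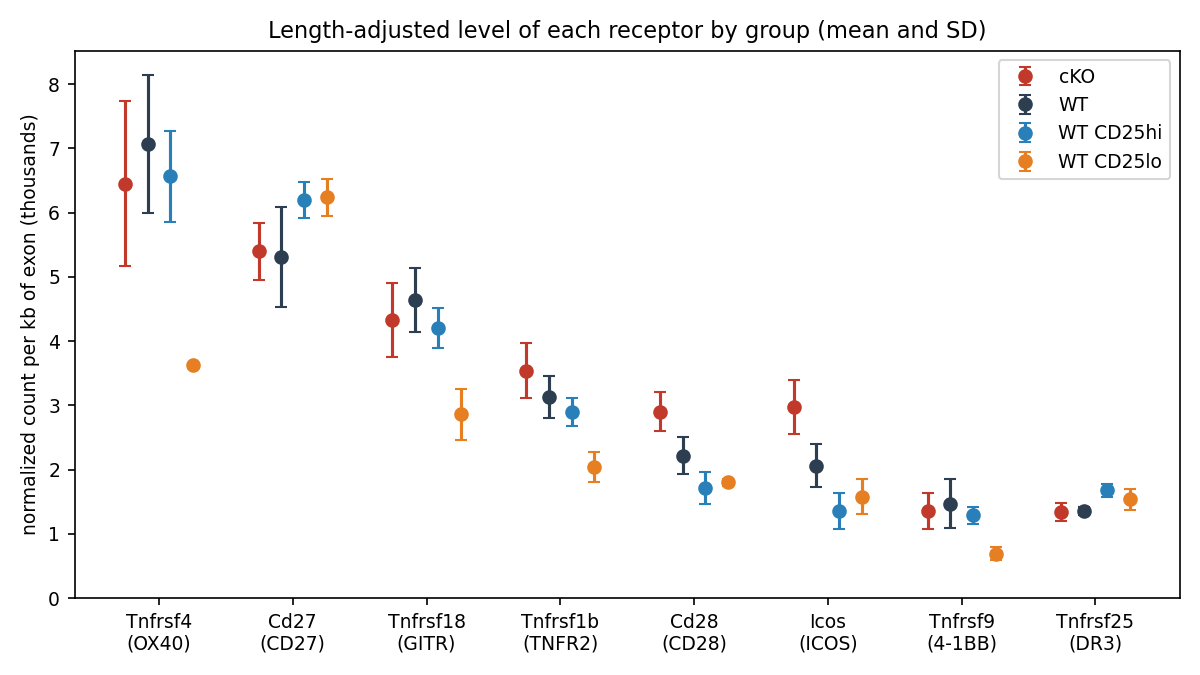
Mean normalized count per kb of exon (in units of 1000, with SD) of each receptor in cKO (n = 5), WT (n = 4), WT CD25hi (n = 3) and WT CD25lo (n = 2) Tregs, with genes ordered by the WT level. Tnfrsf4 falls from 7069 in WT to 3634 per kb in CD25lo Tregs, below Cd27 at 6238.

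Ordered by group mean, Cd28 and Icos ran from cKO over WT and CD25lo to CD25hi, and only the step from cKO to WT was called. Tnfrsf4, Tnfrsf9, Tnfrsf18 and Tnfrsf1b had CD25lo at the bottom, and only the step down to CD25lo was called. That step was from cKO for Tnfrsf4 (log2 difference 0.80, limma adjusted p = 0.0051) and from CD25hi for the other 3. The step of Tnfrsf4 also crosses genotype, sorting and sex, since the cKO libraries were female and the CD25lo libraries male. Its call was lost with sex as a term. For Tnfrsf25 (CD25hi, CD25lo, WT, cKO) and Cd27 (CD25lo, CD25hi, cKO, WT) no neighbouring step was called. In all, 6 of 24 neighbouring steps were called, and 1 without a filter, with sex as a term or with replicate number as a term. The steps follow the order of the same means, and no share over all genes was computed for them. Shares by pair were unlike, from 1.05% of all genes between WT and CD25hi Tregs to 9.59% between cKO and CD25hi Tregs.

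Unsorted WT Tregs contain both CD25hi and CD25lo cells, yet for none of the 8 receptors did the WT mean lie between the means of the CD25-sorted groups. It was above both for 6 receptors and below both for Tnfrsf25 and Cd27. Such a place outside the range was common, at 63.1% of all genes tested. No receptor was called between WT and CD25hi Tregs by limma, by edgeR, nor by limma-voom, although 4 had an unadjusted p under 0.05 and DESeq2 called Cd28 and Icos, and 1.05% of all genes were called. The largest of these differences was that of Icos, 0.61 on the log2 scale (standard error 0.15, limma adjusted p = 0.0572). Immediate early levels also differed between these groups, as given above, but WT replicate 4, at 11.86, lay within the range of the CD25-sorted libraries. Only that library parts sorting for CD25 from the level of these genes, too few to tell the 2 apart.

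Across libraries the receptors formed 3 patterns, which are described without a test since libraries share groups. Over the 14 libraries, Tnfrsf4, Tnfrsf9, Tnfrsf18 and Tnfrsf1b correlated at 0.840 to 0.955 with each other (Pearson's r of log2 normalized counts), and at 0.8 to 0.905 once group means were removed. Cd28 and Icos correlated at 0.832, but at 0.085 within groups, where Icos instead went with the 4 TNF receptor superfamily members (0.655 to 0.828) and Cd28 did not (0.073 to 0.308). Tnfrsf25 and Cd27 correlated at 0.618, and negatively with all other receptors (-0.267 to -0.795), or within groups at 0.274 with each other and down to -0.647 with the others. The immediate early level went the same way, with r from 0.523 (Tnfrsf18) to 0.766 (Cd28) for 6 receptors, -0.715 for Tnfrsf25 and -0.848 for Cd27.

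**Figure D4:**
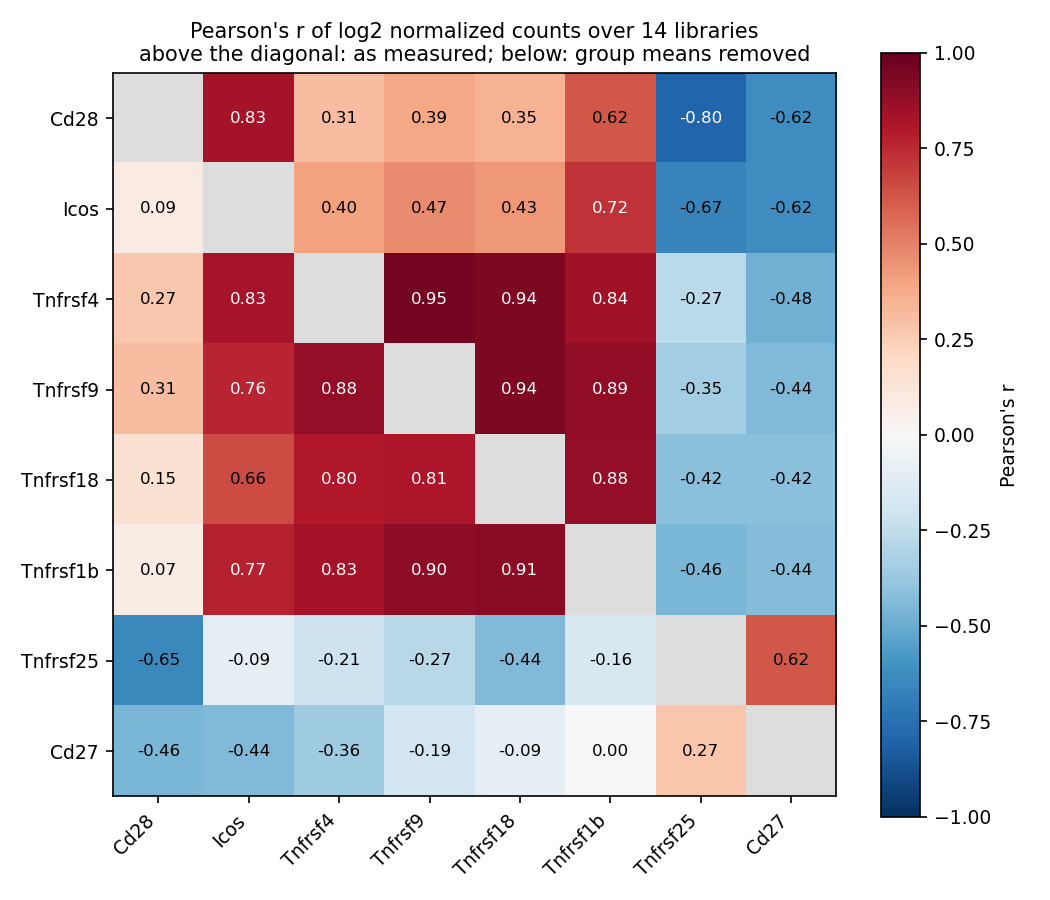
Pearson's r between receptors over 14 libraries (colour from -1, blue, to 1, red), above the diagonal as measured and below it with group means removed. The block of Tnfrsf4, Tnfrsf9, Tnfrsf18 and Tnfrsf1b stays at 0.8 or more on both sides, while Cd28 with Icos goes from 0.832 to 0.085.

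Among 5829 genes with a mean of at least 1000 normalized counts, the 3 genes most like each receptor were found by the same r over 14 libraries. For Tnfrsf4, Tnfrsf9 and Tnfrsf18, each of the 3 named the other 2 (r from 0.935 to 0.955), joined by Neb for Tnfrsf4 (0.943) and by Irf8, a transcription factor, for Tnfrsf9 (0.923) and Tnfrsf18 (0.907). For Tnfrsf1b the genes were Ptprs (0.976), Penk (0.955) and Ikzf2 (0.938), which encodes the Treg transcription factor Helios. For Icos they were Stx11 (0.979), the coinhibitory receptor gene Tigit (0.973) and Cldnd1 (0.971), and for Cd28 Mfsd14a (0.948), Zfp622 (0.948) and Ifngr1 (0.943). The likeness of Tnfrsf25 was weaker, to Top3b (0.857), Dctn6 (0.850) and Hsf1 (0.836). Cd27 was most like Trim21 (0.924), 9430015G10Rik (0.909) and Pglyrp2 (0.908).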

How the data were processed

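Tregs were profiled by RNA-seq in 14 libraries, grouped by their labels. Single-end reads were mapped by the authors with STAR 2.7.2b to GRCm38. The signal the authors deposited for each gene is a read number over the library's DESeq2 (1.24.0) size factor. The deposited log2 values (stabilized levels, fold changes), fold changes as a ratio, p-values and FDR of the authors' comparisons, and the GC percent the authors deposited were not used.

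The 8 receptors, the gene lists and the rules were chosen with earlier results of these data known. Named list genes are up to 4 called genes per list and comparison, smallest adjusted p first. Likeness is Pearson's r over 14 libraries. The main test was limma-trend (R 4.3.3, limma 3.58.1) on log2 of the normalized count plus 1, two-sided, with 4 groups in 1 fit. Genes needed 10 normalized counts in 2 libraries, which left 16241, and p-values were adjusted over these (Benjamini-Hochberg). Fold changes are on this scale, which understates low genes. The study calls its libraries biological replicates without tying each to an animal, so p-values measure the spread between libraries. Multiplying by the size factors gave whole reads for 100.0% of values (within 0.055 normalized counts). On these reads edgeR 4.0.16 (TMM) called 521 genes in cKO and 223 in CD25lo Tregs, and DESeq2 1.42.0 and limma-voom were run as well. Other alternatives changed the filter, the pseudocount, the libraries, and terms for sex, immediate early level and replicate number. Scripts were tested on simulated data. Exons and UTRs come from GENCODE vM21.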

Additional observations from a re-analysis of the deposited data

Results flagged for a closer look

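Tnfrsf25 in WT replicate 2 was at 2873.1 normalized counts, below the other 3 WT libraries at 3133.0 to 3179.8, a gap of 0.847 of the group's range. Of 16 groups of 4 or 5 libraries examined for the receptors, this was the only one with such a library, and chance alone marks about 1 in 20.

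Tnfrsf1b was called for the difference between the 2 comparisons, since its effect in cKO Tregs minus its effect in CD25lo Tregs was 0.68 on the log2 scale (limma adjusted p = 0.0376). The call was lost with sex as a term, with replicate number as a term and without a filter. It was kept in 4 of the 14 fits that left out 1 library.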

How the results depend on the processing

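Of the 12 alternatives beside leaving out libraries, edgeR with TMM, the higher minimum of 100 and both other pseudocounts kept every receptor call but that of Tnfrsf9 in CD25lo Tregs, lost with TMM (adjusted p = 0.0529). The receptors called numbered 2 in cKO against WT, 4 in CD25lo against CD25hi, 1 for the difference of both and 6 neighbouring steps. Without a filter these became 0, 1, 0 and 1. With sex as a term they were 0, 2, 0 and 1, and with the replicate block 0, 1, 0 and 1. Fitted to the 2 groups alone, 1 remained in cKO and 0 in CD25lo Tregs. In CD25lo Tregs edgeR with deposited size factors and limma-voom called 2 each. For the difference, DESeq2 and the immediate early term called 2. Among all genes, 572 were called in cKO Tregs (DESeq2 898, replicate block 290, sex term 22) and 263 in CD25lo Tregs (DESeq2 674, replicate block 105, immediate early term 450, 2 groups alone 0).

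Leaving out 1 library at a time gave 0 to 2 receptors and 349 to 666 genes in cKO Tregs, 0 to 4 receptors and 91 to 377 genes in CD25lo Tregs, 0 to 2 receptors for the difference and 2 to 6 steps. The direction turned only for receptors that were not called. In cKO against WT, Tnfrsf9 was at 0.0106 and Tnfrsf18 at 0.0076 on the log2 scale with the sex term, and Tnfrsf25 at 0.0303 with the replicate block. With libraries left out, Tnfrsf9 ran from -0.261 to 0.0365, Tnfrsf25 from -0.0645 to 0.0303 and Cd27 from -0.0383 to 0.1145. In CD25lo against CD25hi, Cd27 was at -0.0028 with the replicate block and ran from -0.0368 to 0.0556 with libraries left out. For the difference, Cd27 was at -0.0077 with the immediate early term, and with libraries left out it ran from -0.0477 to 0.105 and Tnfrsf25 from -0.0005 to 0.2231. The causes were not tested. Same-numbered cKO and WT libraries did not deviate together (r from -0.409 to -0.081), so the replicate block rests there on a shared number alone. For CD25lo with CD25hi, r was -0.055 and 0.173. With 2 CD25lo libraries the deviations mirror each other, so the check cannot show whether those libraries are paired. Every library held 30055573 or more reads in genes, and which limit weighs most was not tested.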
